A study of Saccharomyces cerevisiae with 40 samples.

Results

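The retrograde response of budding yeast, Saccharomyces cerevisiae, was examined here through 10 genes: its marker CIT2, the 5 other metabolic genes DLD3, CIT1, ACO1, IDH1 and IDH2 that the pathway can control, and the 4 regulators RTG1, RTG2, RTG3 and MKS1. The genes were taken by name from a table of 6462 genes. All 10 were found, and all 10 passed the filter for testing, a mean of at least 5 normalized reads, as did 6103 genes of the table. The group of genes was selected on the known rise of CIT2 in these same libraries under valine and isoleucine, so those 2 comparisons with the control are described with no p-value, and the other 7 were tested. All 9 comparisons share the 4 control libraries, so the 7 tests are not independent of the values behind the choice: a low CIT2 level in those libraries raises its difference in every group.

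Messenger RNA was sequenced from cultures supplied with an excess of a single amino acid, one of alanine, glycine, valine, isoleucine, threonine, phenylalanine, tryptophan, cysteine and methionine, and from control cultures. The groups are called Ala, Gly, Val, Ile, Thr, Phe, Trp, Cys, Met and Ctrl. Each of the 10 groups had 4 libraries, lettered A to D, and the labels call the letters batches, shared across groups. The strain, the medium, the dose of each amino acid and the time of exposure are not stated in the labels, and the doses may differ between amino acids. Nothing in the labels says whether the 4 libraries of a group came from separate cultures, so the p-values reflect only the variation among these libraries, part of which may be technical.

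The retrograde response carries signals from mitochondria to the nucleus. Rtg1 and Rtg3, 2 basic helix-loop-helix proteins, bind as a pair to short R box sites upstream of their target genes. Mks1 holds Rtg3 in the cytoplasm, and Rtg2 binds Mks1 and relieves that block. In cells with impaired respiration, or short of glutamate and glutamine, the pathway raises enzymes that supply citrate and alpha-ketoglutarate, the carbon skeleton of glutamate, and CIT2, the peroxisomal citrate synthase, is its standard marker. CIT1 encodes the mitochondrial citrate synthase, ACO1 aconitase, and IDH1 and IDH2 the subunits of the mitochondrial isocitrate dehydrogenase that makes alpha-ketoglutarate. DLD3 encodes a cytosolic dehydrogenase of D-lactate and hydroxyglutarate.

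The R box sites are shown first, and any link between them and the levels below was not tested. CIT2 and DLD3 each carry a close pair, with starts at most 40 bases apart. The motif GTCAC, the core of the R box, was searched on both strands in the 600 bases upstream of each coding start in the RefSeq R64 genome, with positions counted back from the start codon to the most upstream base of the match. It lay at -345, -312 and -196 upstream of CIT2 and at -160 and -143 upstream of DLD3. The stretch from -400 to -101 of CIT2 (chrIII:122429-122728, minus strand, R64, partly within the annotated reading frame YCR006C) and that from -200 to -101 of DLD3 (chrV:16155-16254, plus strand, R64) are printed in the direction of their genes, with each GTCAC, or its reverse complement GTGAC, in capitals.
CIT2 upstream: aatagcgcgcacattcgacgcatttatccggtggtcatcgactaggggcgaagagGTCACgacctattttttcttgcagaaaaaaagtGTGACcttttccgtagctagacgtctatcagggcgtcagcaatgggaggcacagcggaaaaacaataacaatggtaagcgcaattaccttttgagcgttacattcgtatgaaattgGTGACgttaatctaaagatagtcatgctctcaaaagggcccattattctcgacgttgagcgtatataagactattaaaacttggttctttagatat
DLD3 upstream: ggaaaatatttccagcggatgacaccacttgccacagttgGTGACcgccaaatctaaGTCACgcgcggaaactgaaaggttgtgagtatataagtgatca
RTG3, which encodes one of the factors, held the only other close pair among the members, at -370 and -342, printed below with the motif read in its own direction (chrII:23892-23916, minus strand, and chrII:23864-23888, plus strand, R64), next to the single site of CIT1 (chrXIV:631415-631439, minus strand, R64).
RTG3 at -370: cttttgccggGTCACgattgcgggc
RTG3 at -342: cttgcgaagaGTCACatcccgcgga
CIT1 at -368: gctaaaaggcGTCACgtttttttcc
The other matches were at -450 for ACO1, at -577, -477 and -355 for IDH1, at -194 for RTG1 and at -196 for RTG2, with none for IDH2 and MKS1 in this window. At least 1 match was held by 8 of the 10 members and by 49.22% of 5999 windows of the same length upstream of all genes, so a single match is common. A pair with starts at most 40 bases apart was held by 3 members, CIT2, DLD3 and RTG3, and by 3.167% of all windows. These are matches of letters, and no binding was measured. The metabolic members were taken as genes that the pathway can control, so these counts are no independent test.

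**Figure D1:**
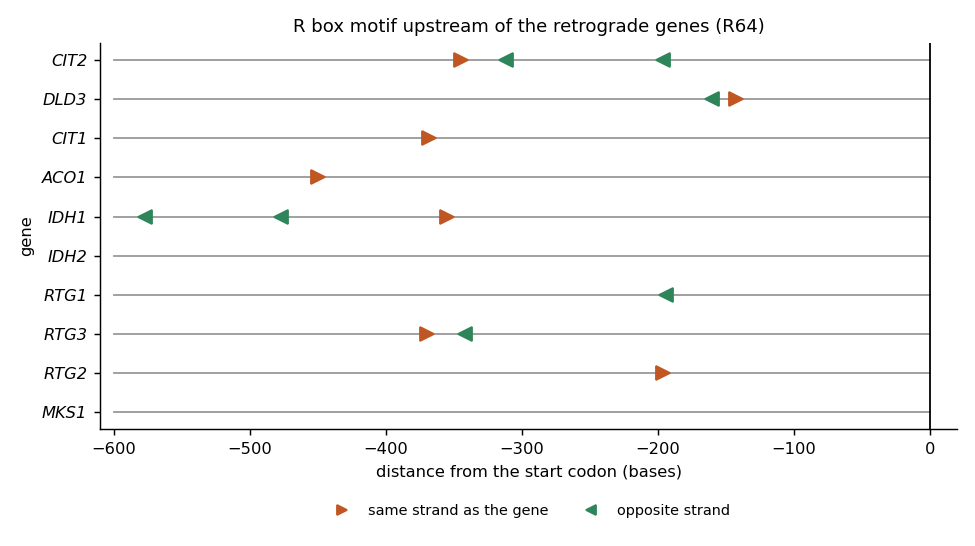
Positions of the 5-base R box motif upstream of the 10 genes, in bases from the start codon (horizontal axis), 1 line per gene, over a window of 600 bases. Right-pointing triangles are matches on the gene's own strand and left-pointing ones are matches on the opposite strand. CIT2 and IDH1 have 3 matches each, DLD3 and RTG3 have 2, and IDH2 and MKS1 have none.

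Estimated depth ran from 5555865 to 17928683 gene reads per library, with a median of 8736144. The deposited values are normalized reads per gene, tested as log2(value + 1) with limma over all 40 libraries and Benjamini-Hochberg adjustment over 6103 genes, with a threshold of 0.05. A difference below is on that log2 scale, with its standard error. In 9 of the members the values came back to whole reads in all 40 libraries, which was so for IDH2 in only 9 libraries, so IDH2 may share reads with another gene model and is given as uncertain. CIT1 and CIT2 are 70.71% identical over their coding sequences, with a longest identical run of 21 bases and no shared stretch of 50. In libraries from whole cultures, fewer cells with a transcript and less of it per cell cannot be told apart.

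CIT2 had its lowest group mean in Ctrl and a higher one under every amino acid. Its level was 5820.3, 4424, 6472 and 4434 normalized reads in Ala libraries A to D, 1376, 948, 3170.0 and 2022 in Gly, 6956, 5075, 4387 and 4268 in Val, and 4847, 4588, 3395 and 2686 in Ile. It was 2565, 4231, 3211 and 3708 in Thr, 3659, 2834, 4280.5 and 3199 in Phe, and 3919, 4483, 2633 and 5528 in Trp. It was 2078, 1553, 3541 and 3291 in Cys, 3179.9, 4030.4, 1922 and 2081 in Met, and 689, 763, 1927 and 1268 in Ctrl. All libraries of Ala, Val, Ile, Thr, Phe and Trp lay above all 4 Ctrl libraries. The Gly, Cys and Met libraries overlapped with Ctrl, whose own values were spread widely, with C and D above A and B.

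Averaged over each group, CIT2 reached 5288 ± 1027 normalized reads in Ala, against 1162 ± 572 in Ctrl (SD, n = 4 each), a log2 difference of 2.29 ± 0.32 (limma adjusted p = 4.23e-07). It rose by 1.91 ± 0.32 in Trp (mean 4141 ± 1206, limma adjusted p = 6.04e-05), by 1.70 ± 0.32 in Phe (mean 3493 ± 624, limma adjusted p = 0.000333) and by 1.66 ± 0.32 in Thr (mean 3429 ± 711, limma adjusted p = 0.000313). The rise was smaller in Met, 1.33 ± 0.32 (mean 2803 ± 991, limma adjusted p = 0.00504), and in Cys, 1.22 ± 0.32 (mean 2616 ± 954, limma adjusted p = 0.0257). In each of these groups all 4 libraries were above the Ctrl library of the same letter, except in Met, where 3 of 4 were. The Cys call was lost on leaving out Cys C (1.05), Cys D (1.08), Ctrl A (1.01) or Ctrl B (1.06), and in a fit to the Cys and Ctrl libraries alone (adjusted p = 0.118).

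In Gly CIT2 averaged 1879 ± 967 normalized reads, a difference from Ctrl of 0.68 ± 0.32 (95% interval 0.03 to 1.32) that missed the threshold (limma adjusted p = 0.115). Each Gly library was nonetheless above the Ctrl library of the same letter, and the call was made without Gly B (0.96) or without Ctrl C (0.96). In Val and Ile, the groups that chose these genes, CIT2 averaged 5171 ± 1242 and 3879 ± 1016 normalized reads, 2.25 and 1.82 above Ctrl on the log2 scale. Set against each other, Val and Ile differed by 0.43 ± 0.32 (95% interval -0.22 to 1.07, limma adjusted p = 0.985), although the Val library was the higher in all 4 letters. Ordered by mean, the groups ran Ala, Val, Trp, Ile, Phe, Thr, Met, Cys, Gly and Ctrl, and the ranges of every 2 neighbours in that order overlapped.

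**Figure D2:**
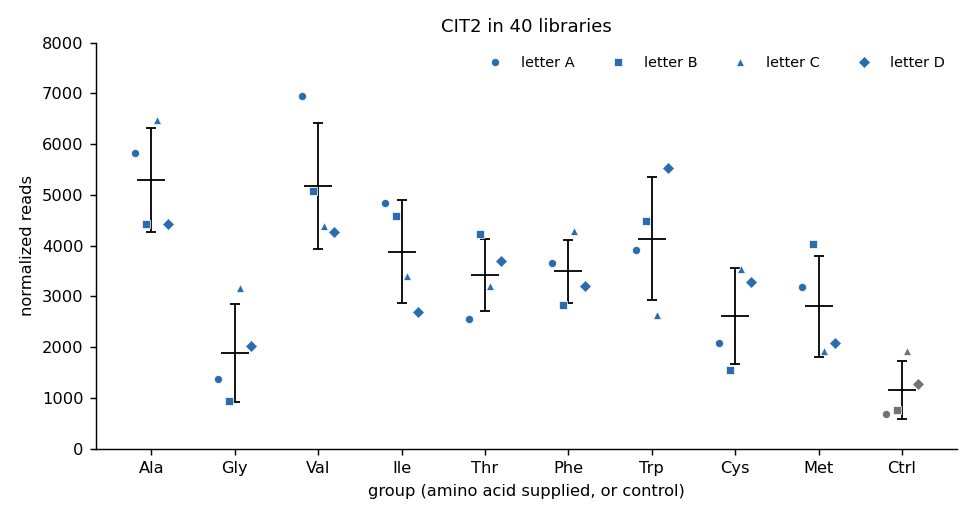
CIT2 in every library, in normalized reads (vertical axis, linear), with the 9 amino acid groups in blue and Ctrl in grey at the right. Symbols give the letters A to D, and bars the mean and SD of 4 libraries. The highest Ctrl library, at 1927 normalized reads, lies below every library of Ala, Val, Ile, Thr, Phe and Trp and within the range of Gly, Cys and Met.

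Beside CIT2, few of the members passed the threshold in any one comparison. In Ala, 3 of 10 members rose and 2 fell, while 23.1% of the 6103 genes rose and 24.2% fell, so the members' shares were near those of all genes. In Gly, 1 rose and 2 fell, against 14% and 12.2% of all genes. In Trp, 2 rose and 1 fell (6.32% and 6% of all genes), and in Met 3 rose and none fell (6.06% and 3.74% of all genes). CIT2 was the only member called in Thr (5.87% of genes higher, 5.33% lower), in Phe (3.7% higher, 1.9% lower) and in Cys (1.29% higher, 1.54% lower). In the comparisons that chose the genes the same fit counted 2 members higher in Val (2.51% of all genes higher, 2.88% lower) and 1 in Ile (1.26% higher, 0.655% lower), counts that follow a choice made on those values and are no test. No member passed between Val and Ile, where 0.131% of genes, 8 in all, did, and where 261 of 6103 genes had an unadjusted p under 0.05.

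The median difference over the 10 members was 0.43 in Trp, 0.31 in Ile, 0.27 in Ala, 0.25 in Val, 0.17 in Met, 0.07 in Phe, -0.03 in Gly and Cys and -0.05 in Thr. Over all genes it lay within -0.02 (Gly) and 0.00. Scaling to equal library totals moved the split of all genes called to 2167 higher and 757 lower in Ala (1407 and 1474 as deposited), 114 and 283 in Val (153 and 176), 68 and 58 in Ile (77 and 40), 55 and 146 in Cys (79 and 94) and 483 and 134 in Met (370 and 228). A fit to 2 groups at a time, with its own estimate of spread, called 7 members in Trp, with CIT1, ACO1, IDH1 and IDH2 added, and 3 in Thr, with DLD3 and CIT1 added.

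**Figure D3:**
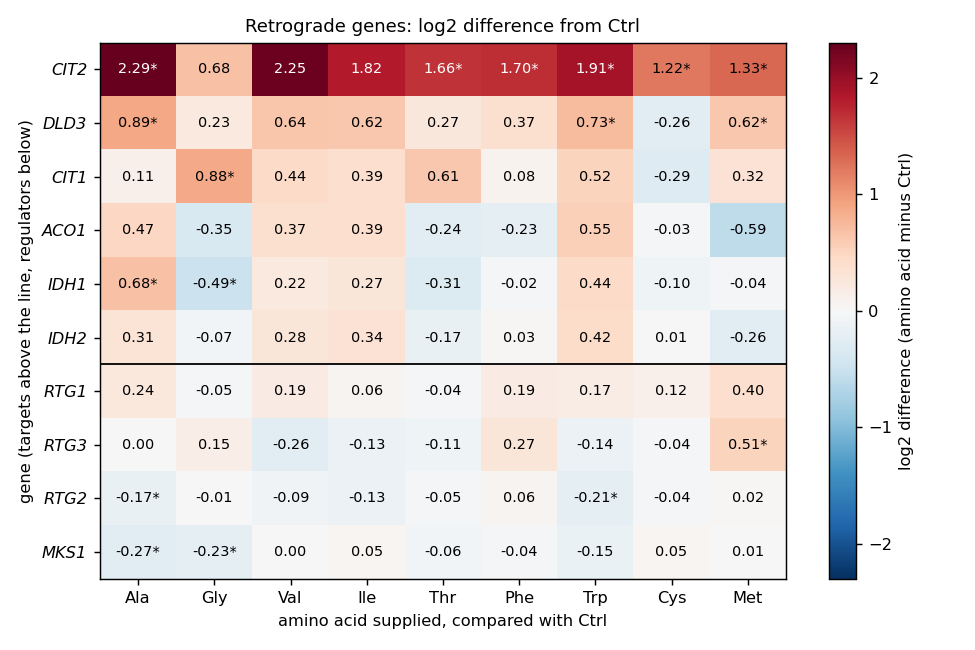
Difference from Ctrl on the log2 scale (colour and number) for the 10 genes (rows, metabolic genes above the line and regulators below) under each of the 9 amino acids (columns). A star marks a limma adjusted p under 0.05, given only for the 7 comparisons that were tested. The CIT2 row is positive throughout, from 0.68 in Gly to 2.29 in Ala, while ACO1, IDH2 and RTG1 carry no star.

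DLD3 was the member with the next most calls. It had 8879, 8344, 9211 and 7019.9 normalized reads in Ala libraries A to D, 7281, 7691, 6345 and 8604 in Trp and 7843, 9102, 5071 and 6272 in Met, against 4678, 4463, 4108 and 4679 in Ctrl. These 12 libraries were all above all 4 Ctrl libraries, which lay close together. The rise was 0.89 ± 0.19 in Ala (limma adjusted p = 0.000314), 0.73 ± 0.19 in Trp (limma adjusted p = 0.00969) and 0.62 ± 0.19 in Met (limma adjusted p = 0.0326). The Met call was lost without Met A (0.56), Met B (0.49) or any 1 of the 4 Ctrl libraries (0.58 to 0.65).

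In Val DLD3 had 6938, 6116, 8533 and 6520.0 normalized reads and in Ile 6373, 6576, 6562 and 8063, again all above Ctrl, with differences of 0.64 and 0.62. The difference was 0.27 ± 0.19 in Thr (limma adjusted p = 0.418), with all 4 libraries above Ctrl, and 0.37 ± 0.19 in Phe (limma adjusted p = 0.369), where Phe C stood at 8596 normalized reads and the other Phe libraries at 4703 to 5292. In Cys DLD3 ran from 2523 to 6257 normalized reads on both sides of Ctrl, with a difference of -0.26 ± 0.19 (limma adjusted p = 0.625). Cys was the only group with a DLD3 mean below that of Ctrl, and CIT2 rose there.

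CIT1, the mitochondrial citrate synthase, passed the threshold in Gly alone, the group in which CIT2 did not. It had 3257, 1680.2, 4659 and 2631 normalized reads in Gly libraries A to D, against 1612, 1564, 1284 and 1821 in Ctrl. Gly B lay inside the Ctrl range and the other 3 Gly libraries above it. The difference was 0.88 ± 0.31 (limma adjusted p = 0.033), and it missed the threshold without Gly A (0.81), Gly C (0.64), Ctrl A (0.89), Ctrl B (0.88) or Ctrl C (0.78). In Thr all 4 libraries, at 2060.1, 2734, 2266 and 2536, lay above Ctrl, with a difference of 0.61 ± 0.31 (limma adjusted p = 0.218). In the other tested groups CIT1 differed from Ctrl by between -0.29 (Cys) and 0.52 (Trp). In Phe the value of Phe C was 3520.0 normalized reads, with the other 3 at 1081 to 1467. In Val and Ile all libraries were above Ctrl, with differences of 0.44 and 0.39.

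The balance of both citrate synthases was taken as the ratio of CIT2 to CIT1 reads within a library, which no scaling of libraries can move. On the log2 scale it averaged 1.63 ± 0.43 in Ala, against -0.55 ± 0.81 in Ctrl (SD, n = 4 each), a difference of 2.18. In Cys it averaged 0.96 ± 0.30, a difference from Ctrl of 1.51, and every library of Ala and of Cys had a higher ratio than every Ctrl library. Both gave p = 0.0286 in an exact two-sided permutation test, the smallest that 4 libraries against 4 allow, and an adjusted p of 0.1 over the 14 ratio tests. An exact permutation test of the differences paired by letter gave p = 0.125 for both, the smallest that 4 pairs allow. The difference was 1.62 in Phe, 1.39 in Trp, 1.05 in Thr and 1.0 in Met, with ranges that overlapped that of Ctrl. In Gly the ratio averaged -0.75 ± 0.38, -0.20 from Ctrl (exact permutation p = 0.714). In Val the ratio was 1.81 above Ctrl with no overlap, and in Ile 1.44 above with overlap. None of the 14 tests passed after adjustment.

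ACO1, aconitase, had the highest level of the 10 genes per length of coding sequence in Ctrl, 4204 ± 569.7 normalized reads per kb (SD, n = 4), and passed the threshold nowhere. It had 13814, 15185, 12294 and 16248 normalized reads in Trp libraries A to D and 13746, 15340.2, 13740.1 and 11559 in Ala, against 10555, 10755, 7867 and 10123 in Ctrl. All libraries of both groups were above Ctrl. The differences were 0.55 ± 0.25 in Trp (limma adjusted p = 0.139) and 0.47 ± 0.25 in Ala (limma adjusted p = 0.111). Scaled to equal library totals, ACO1 passed in Ala (0.66, limma adjusted p = 0.032), as did IDH2 (0.49, limma adjusted p = 0.0201). That scaling raised the median of all genes in Ala by 0.19. In Met ACO1 had 6106, 9837, 5431 and 5436 normalized reads, with Met B near the Ctrl mean and the other 3 below the Ctrl range, a difference of -0.59 ± 0.25 (limma adjusted p = 0.128), which passed without Met B (-0.79, limma adjusted p = 0.04995). In Gly, Thr, Phe and Cys the differences were -0.35, -0.24, -0.23 and -0.03, and in Val and Ile 0.37 and 0.39.

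The genes of isocitrate dehydrogenase had different calls in Ala and Gly. IDH1 had 4121, 3956, 4586 and 3653 normalized reads in Ala libraries A to D and 1913, 1285, 2711 and 1597 in Gly, against 2652, 2874, 1933 and 2816 in Ctrl. Every Ala library was above every Ctrl library, and 3 of 4 Gly libraries were below the Ctrl range, with Gly C inside it. IDH1 rose in Ala by 0.68 ± 0.18 (limma adjusted p = 0.00202) and fell in Gly with a difference of -0.49 ± 0.18 (limma adjusted p = 0.0371). The Gly call did not hold without Gly A (-0.52), Gly B (-0.33), Gly D (-0.43), Ctrl A (-0.47), Ctrl B (-0.43) or Ctrl D (-0.44). It was also lost under equal library totals (limma adjusted p = 0.057) and in a fit to the Gly and Ctrl libraries alone (limma adjusted p = 0.132). In Trp all 4 IDH1 libraries, at 3408, 3477, 3147 and 3742, exceeded Ctrl, with a difference of 0.44 ± 0.18 (limma adjusted p = 0.101).

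IDH2, uncertain as said, had 4627, 4406, 4152 and 4267 normalized reads in Ala libraries A to D, 3409, 2819, 4215 and 3171 in those of Gly and 4646, 4849, 4234 and 5175 in those of Trp, against 3738, 3706, 2754 and 4041 in Ctrl. Ala and Trp lay above Ctrl and Gly overlapped it. The differences of 0.31 ± 0.16 in Ala (limma adjusted p = 0.12) and 0.42 ± 0.16 in Trp (limma adjusted p = 0.0886) missed the threshold, and the rest lay between -0.26 (Met) and 0.34 (Ile). The log2 ratio of IDH1 to IDH2 within a library was -0.10 ± 0.17 in Ala and -0.90 ± 0.21 in Gly, against -0.47 ± 0.07 in Ctrl (SD, n = 4 each). All Ala ratios were higher and all Gly ratios lower than those of Ctrl (exact two-sided permutation p = 0.0286 each, adjusted p = 0.1). Paired by letter, the exact permutation p was 0.125 each. Elsewhere the ratio differed from Ctrl by -0.14 (Thr) to 0.22 (Met), with overlap.

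**Figure D4:**
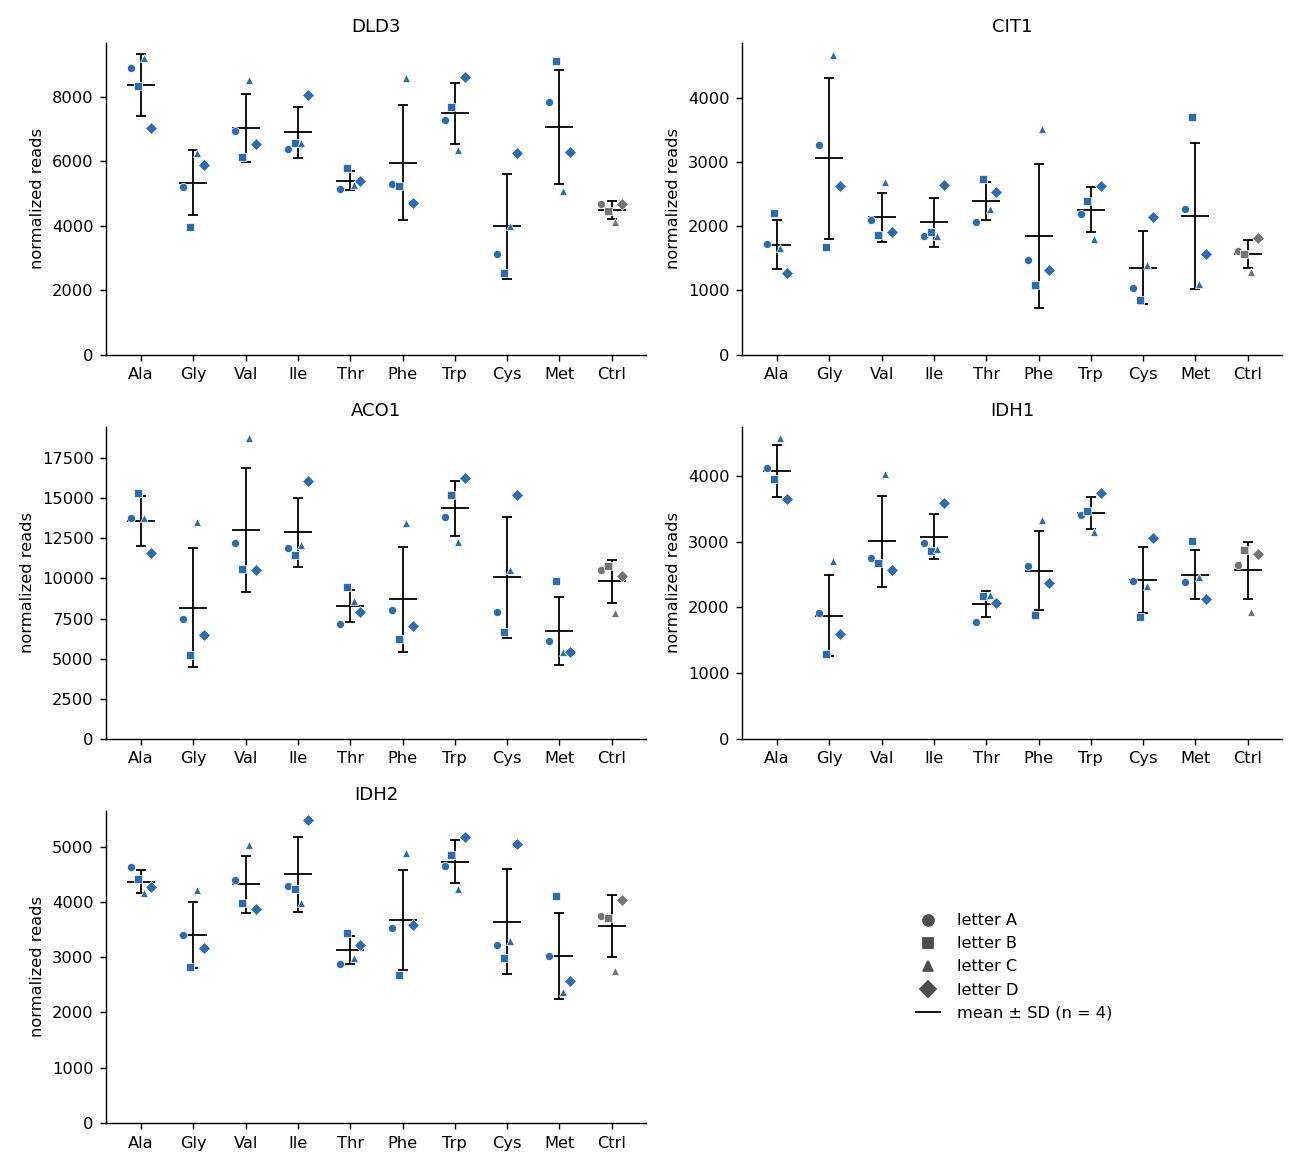
DLD3, CIT1, ACO1, IDH1 and IDH2 in every library, in normalized reads (vertical axes, linear, each from 0), by group with Ctrl in grey at the right. Symbols give the letters A to D, and bars the mean and SD of 4 libraries. In Phe the C library is the highest for all 5 genes, as is Met B in Met, Ile D in Ile and Cys D in Cys.

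Within a group these 5 genes tended to be highest in the same library, a pattern counted after the values were seen. In 7 of the 10 groups a single library was the highest for all 5 genes: Gly C, Val C, Ile D, Phe C, Trp D, Cys D and Met B. In Thr, library B was the highest for 4 of the 5. CIT2 was the highest in that same library in Gly, Phe, Trp, Met and Thr, and in another library in Val, Ile and Cys. The 5 genes share each library's culture, RNA and scaling, whose part in this was not tested. Whether other sets of 5 genes do the same was not counted.

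Over the 9 comparisons the 4 regulators differed from Ctrl by -0.27 (MKS1 in Ala) to 0.51 (RTG3 in Met). RTG1 had 111 to 269 normalized reads over all libraries, passed in no comparison, and differed from Ctrl by -0.05 (Gly) to 0.40 (Met, ± 0.20, limma adjusted p = 0.209, with all 4 Met libraries above Ctrl). RTG3 had 719, 626, 785 and 741 normalized reads in Met libraries A to D, against 485, 541, 472 and 516 in Ctrl. All Met libraries were above all Ctrl libraries, a rise of 0.51 ± 0.13 (limma adjusted p = 0.00762). It differed by 0.27 ± 0.13 in Phe (limma adjusted p = 0.278), also with no overlap, and by -0.26 in Val, where all 4 libraries were below Ctrl.

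RTG2, the positive regulator that binds Mks1, had 1165, 1133, 1022 and 1177 normalized reads in Ala and 1161, 1091, 985 and 1117 in Trp, against 1322, 1243, 1247 and 1232 in Ctrl. All 8 amino acid libraries were below Ctrl, with differences of -0.17 ± 0.06 in Ala (limma adjusted p = 0.0317) and -0.21 ± 0.06 in Trp (limma adjusted p = 0.0236). Under equal library totals the Ala difference turned to 0.02, and leaving out Ala C (-0.12) or Ctrl A (-0.14) ended that call. So did a fit to the Ala and Ctrl libraries alone (limma adjusted p = 0.0999). Leaving out Trp C (-0.17) or Ctrl A (-0.19) ended the call in Trp. MKS1, the negative regulator, had 531, 504, 528 and 617 in Ala and 541, 517, 571 and 616 in Gly, against 663, 622, 665 and 669 in Ctrl. Both groups lay below Ctrl, with differences of -0.27 ± 0.08 in Ala (limma adjusted p = 0.00528) and -0.23 ± 0.08 in Gly (limma adjusted p = 0.0311). Equal totals left -0.08 in Ala, past no threshold. The Gly call ended without Gly A (-0.21), Gly B (-0.19), Gly C (-0.23), Ctrl A (-0.22), Ctrl C (-0.22) or Ctrl D (-0.21). A fit to the Gly and Ctrl libraries alone ended it too (limma adjusted p = 0.0955). In the other groups MKS1 differed from Ctrl by -0.15 (Trp) to 0.05 (Cys).

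Per kb of coding sequence in Ctrl, the mean level was 3207 normalized reads for IDH2, 3006 for DLD3, 2372 for IDH1 and 1090.4 for CIT1, below ACO1 at 4204. CIT2 followed at 840.1, then RTG2 at 714, MKS1 at 373, RTG3 at 345 and RTG1 at 320.1. CIT2 had the lowest mean of the 6 metabolic genes, and its gap to CIT1 was within its own SD over the Ctrl libraries, 413.

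Among 5794 tested genes with a mean of at least 20, those whose group means most resembled CIT2 over the 10 groups were FIN1 (Pearson r = 0.895), NTR2 (r = 0.890), CUS1 (r = 0.877), MSB4 (r = 0.871), MRPS8 (r = 0.869) and DIP5 (r = 0.847), a dicarboxylic amino acid permease. Of these 6, DIP5 had the widest change, 0.51 to 1.83 above Ctrl, and the other 5 lay within 0.07 to 0.59 above it. The members ranked lower: r was 0.716 for DLD3 (rank 47), 0.614 for IDH1, 0.551 for IDH2, 0.526 for ACO1, 0.462 for RTG1, 0.101 for CIT1, -0.154 for MKS1, -0.313 for RTG3 and -0.578 for RTG2. These are descriptions over 10 points that share the libraries of each group.

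The other genes of the surrounding metabolism were described from lists of named genes, naming up to 4 genes past the threshold in a comparison, those with the largest differences, and any others that bear on them. Their counts stand against the shares of all genes given above, which were 23.1% higher and 24.2% lower in Ala, 14% and 12.2% in Gly, and under 7% each way in the other tested groups. Of 8 further regulators of the pathway (BMH1, BMH2, GRR1, LST8, TOR1, TOR2, KOG1 and TCO89), 2 rose and 2 fell in Ala, near the shares of all genes, 1 rose and 1 fell in Gly, 1 rose and 1 fell in Met, and none passed in Thr, Phe, Trp or Cys. LST8, a TOR complex subunit and negative regulator of the response, rose by 0.51 ± 0.09 in Ala (limma adjusted p = 1.78e-05), by 0.30 ± 0.09 in Gly (limma adjusted p = 0.0106) and by 0.32 ± 0.09 in Met (limma adjusted p = 0.0167). GRR1, which marks Mks1 for degradation, fell in Gly (-0.45 ± 0.07, limma adjusted p = 1.64e-05). The other Ala calls were TOR1, a TOR kinase (-0.26), and 2 TOR complex subunits, KOG1 (-0.28) and TCO89 (0.25). The TOR1 and KOG1 calls were lost under equal library totals (-0.08 and -0.09), that of KOG1 also without Ala A, B or C or Ctrl C or D (-0.28 to -0.24), and that of TCO89 without Ala A, B or C or Ctrl A, B or C (0.21 to 0.25). TOR1 was lower in Met (-0.30), a call lost without Met A (-0.22) or Ctrl C (-0.26) and under equal library totals (-0.23).

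Of 14 other genes of the tricarboxylic acid cycle, 8 rose and 1 fell in Gly, the most of any group. They included LSC2, a succinyl-CoA ligase subunit (1.05 ± 0.17, limma adjusted p = 1.24e-05), CIT3, a further mitochondrial citrate synthase (0.83 ± 0.16, limma adjusted p = 0.000118), SDH2 of succinate dehydrogenase (0.79 ± 0.21, limma adjusted p = 0.00495) and MDH1, mitochondrial malate dehydrogenase (0.77 ± 0.19, limma adjusted p = 0.00304). In the other tested groups 1 or 2 rose and at most 2 fell. LSC2 rose in Ala, Gly, Thr, Phe, Trp and Cys, by 0.61 (Thr) to 1.21 (Ala), its Thr call being lost without Thr C (0.54) and its Cys call without Cys A (0.59), Ctrl A (0.66), Ctrl C (0.62) or Ctrl D (0.61) and under equal library totals (0.58). In Val and Ile it was 0.85 and 0.66 above Ctrl. Other calls outside Gly were SDH3 in Ala (-0.44, lost under equal library totals, -0.25), FUM1 in Trp (0.32, lost without any 1 library other than Ctrl D, 0.30 to 0.33), IDP1 in Met (0.61) and CIT3 in Met (0.52, lost without Met B, Met C, Ctrl A, Ctrl C or Ctrl D, 0.46 to 0.54). The list's median difference was 0.40 in Gly, against -0.02 over all genes.

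Of 6 glyoxylate-cycle and cytosolic partners of CIT2, 4 rose and 1 fell in Ala, 3 rose in Gly, 2 rose in Thr, 2 rose and 1 fell in Trp, 1 rose and 1 fell in Phe, 1 rose in Cys and 1 fell in Met. MDH2, cytosolic malate dehydrogenase, rose in Cys to 4712 ± 529 normalized reads, against 1757 ± 469 in Ctrl (SD, n = 4 each), by 1.45 ± 0.20 (limma adjusted p = 4.38e-06). It also rose in Phe (0.99), Ala (0.87) and Trp (0.71, lost without Ctrl A, 0.63), and was 0.98 and 1.06 above Ctrl in Val and Ile. ICL1, isocitrate lyase, fell in Ala (-1.05), Phe (-0.62) and Trp (-0.62) and rose in Gly (0.51). MLS1, malate synthase, a gene of low level, rose in Gly to 172 ± 104 normalized reads, against 46.1 ± 6.07 in Ctrl (SD, n = 4 each), by 1.71 ± 0.24 (limma adjusted p = 1.64e-06). Its Ala call (0.61) was lost without Ala A, B or C or Ctrl B, C or D (0.57 to 0.61). IDP2, cytosolic isocitrate dehydrogenase, rose in Gly (0.74), in Thr (0.51, lost without Thr D, 0.47, or Ctrl C, 0.44) and in Ala (0.35, lost without Ala A, B or C or any 1 Ctrl library, 0.28 to 0.37, and with no filter, 0.35). MDH3, peroxisomal malate dehydrogenase, rose in Trp (0.36). Its calls in Ala (0.26), Thr (0.31) and Met (-0.30) were lost on leaving out any 1 of 4, 5 and 6 libraries.

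Genes that feed or export the cycle's acids gave 4 higher and 6 lower of 14 in Ala, 3 and 2 in Gly, 1 and 5 in Thr, 3 and 3 in Phe, 2 and 4 in Trp, 2 and 2 in Cys and 4 and 3 in Met. In Gly these shares lay near those of all genes. PYC1, pyruvate carboxylase, which makes oxaloacetate, had 9293, 12781, 11432 and 7819 normalized reads in Ala and 5009, 5884, 5739 and 6025 in Trp, against 2249.9, 2353, 2516 and 2788 in Ctrl. Every Ala and Trp library was above Ctrl, with rises of 2.04 ± 0.34 (limma adjusted p = 7.84e-06) and 1.19 ± 0.34 (limma adjusted p = 0.0152). PYC2, the other pyruvate carboxylase gene, fell in the same groups, to 6907 ± 492 normalized reads in Ala and 6649 ± 864 in Trp, against 9962 ± 344 in Ctrl (SD, n = 4 each), with differences of -0.53 ± 0.11 (limma adjusted p = 0.000147) and -0.59 ± 0.11 (limma adjusted p = 0.000217). It also fell in Thr (-0.43) and in Phe (-0.35), the Phe call being lost without Phe A, C or D or any 1 Ctrl library (-0.37 to -0.32). The coding sequences are 85.12% identical with a longest identical run of 200 bases, so how reads were shared between PYC1 and PYC2 is uncertain, although both came back to whole reads in all 40 libraries. In Phe the C library had 12268 normalized reads of PYC1 and the others 2898 to 3403. PYC1 rose in Met by 1.06 ± 0.34 (limma adjusted p = 0.0379), a call lost without Met A (1.01), Met B (0.85) or any 1 Ctrl library (1.01 to 1.11).

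The carriers of the mitochondrial membrane moved in both directions. CTP1, for citrate, and ODC2, for oxodicarboxylates, fell in most of the tested groups. ODC2 fell in Ala (-2.36 ± 0.13, limma adjusted p = 7.01e-17), Phe (-1.27 ± 0.13, limma adjusted p = 5.16e-09), Trp (-1.24 ± 0.13, limma adjusted p = 8.71e-09), Met (-1.03 ± 0.13, limma adjusted p = 4.89e-07) and Gly (-0.50 ± 0.13, limma adjusted p = 0.00371). CTP1 fell in those 5 groups, by the most in Ala (-1.24 ± 0.13, limma adjusted p = 2.29e-09), and in Thr (-0.45). Its Gly call was lost without Gly C (-0.35), and its Thr call without Thr C (-0.43), Thr D (-0.40), Ctrl A (-0.43) or Ctrl C (-0.43). In Val ODC2 was -0.71 and CTP1 -0.58 from Ctrl. ODC1, the other oxodicarboxylate carrier, rose in Gly (1.15 ± 0.11, limma adjusted p = 1.29e-10), Phe (0.51), Ala (0.44), Thr (0.41), Cys (0.41) and Met (0.40). Its Phe call was lost in a fit to the Phe and Ctrl libraries alone (limma adjusted p = 0.0538). Its Cys call was lost without Cys A, B or C or Ctrl A or D (0.36 to 0.40) and under equal library totals (0.34), and its Met call without Met B (0.33) or Ctrl A (0.35).

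OAC1, the oxaloacetate carrier, rose in Phe (1.67 ± 0.14, limma adjusted p = 2.53e-11) and Met (0.89 ± 0.14, limma adjusted p = 1.65e-05) and fell in Thr (-1.37 ± 0.14, limma adjusted p = 2.73e-09) and Cys (-1.37 ± 0.14, limma adjusted p = 7.39e-09). It averaged 5772 ± 752 normalized reads in Phe, 3352 ± 306 in Met, 698 ± 42.8 in Thr and 700.0 ± 70 in Cys, against 1823 ± 289 in Ctrl (SD, n = 4 each). SFC1, the succinate-fumarate carrier, a gene of low level, rose in Gly (1.64 ± 0.40, limma adjusted p = 0.00263). It averaged 34.1 ± 21.7 normalized reads there, against 9.21 ± 3.23 in Ctrl (SD, n = 4 each). ACS1, an acetyl-CoA synthetase, rose in Gly too (0.81). DIC1, the dicarboxylate carrier, rose in Phe (0.99) and Ala (0.74) and fell in Thr (-0.53), and MAE1, malic enzyme, fell in Ala (-0.66) and in Thr (-0.67, lost without Thr A, Thr D, Ctrl B, Ctrl C or Ctrl D, -0.67 to -0.61). DIC1 and MAE1 came back to whole reads in only 4 and 9 of the 40 libraries and are as uncertain as IDH2. In Cys the largest differences after OAC1 were those of MPC2, a pyruvate carrier subunit (-0.59, lost without Cys B, C or D or Ctrl A or B, -0.55 to -0.52), ODC1 and YHM2, a citrate and oxoglutarate carrier (0.41).

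Of 5 genes that join alpha-ketoglutarate and glutamate, GDH2, the catabolic glutamate dehydrogenase, rose in Ala by 2.17 ± 0.08 (limma adjusted p = 4.83e-21), in Met by 1.19 ± 0.08 (limma adjusted p = 4.20e-13), in Phe by 0.69 ± 0.08 (limma adjusted p = 1.07e-07) and in Gly by 0.66 ± 0.08 (limma adjusted p = 1.10e-07). GLT1, glutamate synthase, fell in Ala (-0.78 ± 0.11, limma adjusted p = 4.07e-07), Gly (-0.62 ± 0.11, limma adjusted p = 3.80e-05) and Trp (-0.54 ± 0.11, limma adjusted p = 0.000612). Its fall in Met (-0.34) was lost without Met A (-0.26), Met B (-0.31), Ctrl A (-0.35), Ctrl C (-0.28) or Ctrl D (-0.36). GDH3, a biosynthetic glutamate dehydrogenase, rose in Ala (0.70), Gly (0.61) and Trp (0.43). GDH1, the other one, fell in Ala (-0.60) and in Cys (-0.42, lost without any 1 library other than Cys C, -0.44 to -0.37), and it rose in Gly (0.30, lost without any 1 library other than Gly B and Ctrl C, 0.19 to 0.32, and with no filter). GLN1, glutamine synthetase, rose in Cys (0.59), a call lost in a fit to the Cys and Ctrl libraries alone (limma adjusted p = 0.0662). The counts of this list were 2 higher and 2 lower in Ala, 3 and 1 in Gly, and at most 1 each way in Thr, Phe, Trp, Cys and Met.

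HAP4, the regulatory subunit of the Hap complex that activates respiratory genes, fell in Ala, Trp, Gly and Thr. It had 294, 209.9, 318 and 251 normalized reads in Ala libraries A to D, 312, 438, 439 and 235 in those of Trp, 506, 392, 548 and 616 in those of Gly and 561, 548, 577 and 550.4 in Thr, against 1846, 1823, 879.8 and 1277 in Ctrl. All 16 of those amino acid libraries lay below all 4 Ctrl libraries. The falls were -2.39 ± 0.33 in Ala (limma adjusted p = 3.26e-07), -2.01 ± 0.33 in Trp (limma adjusted p = 4.40e-05), -1.45 ± 0.33 in Gly (limma adjusted p = 0.001) and -1.32 ± 0.33 in Thr (limma adjusted p = 0.00551). In Phe, Cys and Met the differences were -1.01 ± 0.33, -0.52 ± 0.33 and -0.90 ± 0.33 (limma adjusted p = 0.0603, 0.524 and 0.0746). Among the Ctrl libraries, A and B had the lower CIT2 and the higher HAP4, and C the highest CIT2 and the lowest HAP4. Trp D likewise had the highest CIT2 and the lowest HAP4 of its group. By contrast, Ala C was the highest and Ala B the lowest of their group for both genes. Ile A was the highest and Gly B the lowest of their groups for both. Over the 10 group means, Pearson r between HAP4 and CIT2 was -0.736 (rank 5758 of 5794 genes), a description with no test. How the levels of CIT2 and HAP4 vary together within groups was not tested. Of the other 4 listed genes with a HAP symbol, HAP5 rose in Ala (0.39) and HAP1 fell in Gly (-0.29). The HAP1 call was lost without Gly A (-0.18), Ctrl C (-0.26) or Ctrl D (-0.26).

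**Figure D5:**
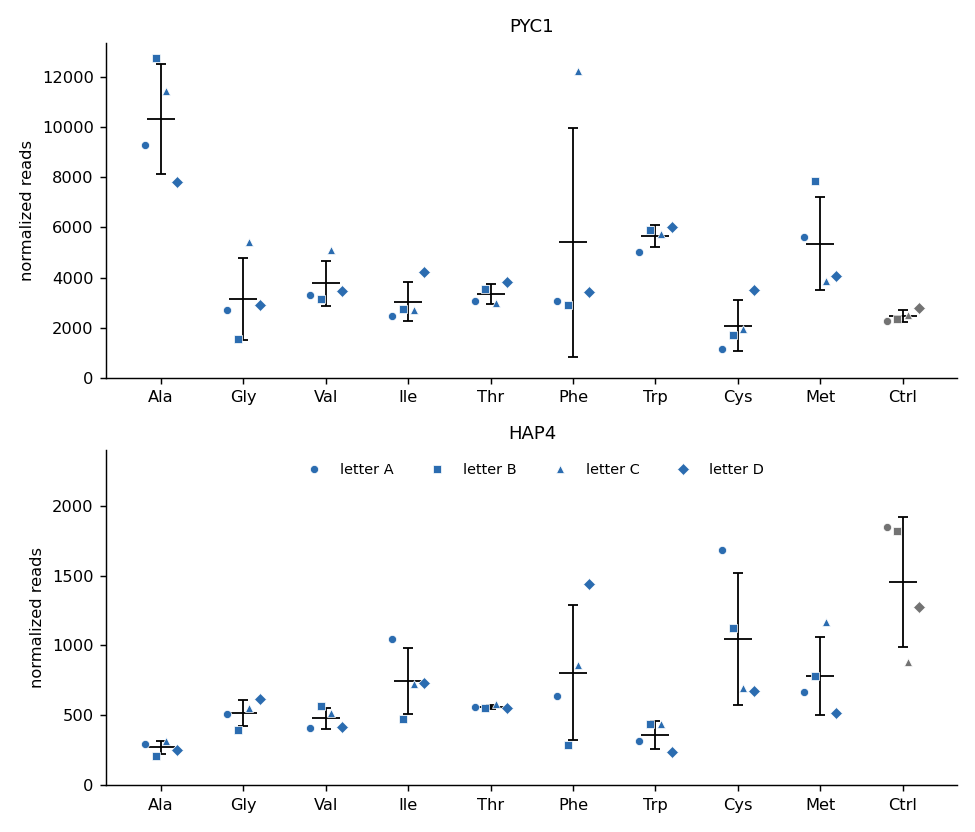
PYC1 and HAP4 in every library, in normalized reads (vertical axes, linear, from 0), by group with Ctrl in grey at the right, symbols for the letters A to D, and bars for the mean and SD of 4 libraries. PYC1 is above Ctrl in every Ala and Trp library, with Phe C at 12268 normalized reads apart from the other Phe libraries. HAP4 is below the lowest Ctrl library, 879.8 normalized reads, in every Ala, Gly, Val, Thr and Trp library.

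Among the smaller lists, of 5 genes of lactate, hydroxyglutarate and serine-linked metabolism 3 rose and 2 fell in Gly, 2 fell in Ala, 2 fell in Trp, 1 fell in Thr and 1 rose in Met. SER3 and SER33, which begin serine synthesis, moved apart in Gly, with -1.54 ± 0.21 for SER3 (limma adjusted p = 6.43e-07) and 1.0 ± 0.10 for SER33 (limma adjusted p = 6.01e-10). Their coding sequences are 82.41% identical with a longest identical run of 56 bases, and SER3 came back to whole reads in 38 of 40 libraries, so their split is uncertain. SER3 fell in Thr too (-0.87). CYB2, an L-lactate dehydrogenase, rose in Gly (0.86), and DLD2, another relative of DLD3, rose in Gly (0.48) and fell in Ala (-0.51) and Trp (-0.33). In Ala DLD1, a mitochondrial relative of DLD3, fell (-1.67 ± 0.10, limma adjusted p = 1.02e-15) as DLD3 rose. DLD1 was lower in Trp (-0.33, lost without Trp A, Trp D or Ctrl C, -0.33 to -0.25). It was higher in Met (0.38, lost without Met B, Ctrl A or Ctrl B, 0.33 to 0.34). Of the pair PDH1 and ICL2, which act in propionate breakdown, both rose in Ala, ICL2 rose in Gly, and PDH1 rose in Phe (1.01 ± 0.24, limma adjusted p = 0.006) and in Met (0.84), where the call was lost without Met A (0.81), Met B (0.70) or Ctrl D (0.72). Of 8 listed transcripts encoded in mitochondrial DNA, 7 were in the table and 2, COX1 and OLI1, passed the filter. The libraries were selected for poly(A), and how well that captures transcripts of mitochondrial DNA was not tested. COX1, which came back to whole reads in only 6 of 40 libraries and is uncertain, rose in Gly (1.16 ± 0.43, limma adjusted p = 0.044). That call was lost without Gly A (0.84), Gly C (1.24), Gly D (1.19), Ctrl B (1.17), Ctrl C (1.07) or Ctrl D (1.12). Equal library totals ended it too (1.16, limma adjusted p = 0.0533).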

How the data were processed

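Messenger RNA was measured in 40 libraries, 10 groups of 4. Per the labels' protocols, RNA was isolated with a MasterPure kit, DNase-treated, selected for poly(A) and made into directional NEBNext Ultra II libraries. Per the submitters' processing notes, STAR 2.7.8a and Partek were used, with no role given. For the build, the annotation and strand use in counting: not given in the sources used here. The authors deposited normalized reads, a signal per gene that is never negative. Low values were whole multiples of 1 step in 88.8 to 90.9% of a library's values within 0.1 read, which gave the estimated depth. The rest were fractional, so no count test was run.

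From these values, log2(value + 1) was fitted with limma 3.58.1 in R 4.3.3 (all 40 libraries with 1 mean per group, a trended prior variance and no block term). The 6103 genes fitted averaged 5 or more. For weakly expressed genes this scale gives too small a fold change. Ratios were compared with exact permutation tests, unpaired and also with the letters paired. The labels call the letters A to D batches, which pairs libraries. As a check, each library's deviations from its group mean were correlated, with an average r of 0.174 within letters and -0.0576 between letters. Upstream sequence was read from RefSeq R64 by gene name with Biopython 1.88 in Python 3.11.15. The genes, the lists and the tests were chosen with earlier results of these data known. Named list genes are up to 4 per list and tested comparison, those with the largest differences past the threshold, and the 6 genes most like CIT2 by r. Other calls of these lists, such as those of PYC2 and ODC1, were named after their values were seen. 1 listed gene is not reported here. On simulated data made for Ala and Ctrl over 6103 genes the steps were tested, and 47 of 67 genes set to a log2 change of 0.58 were found, 62 of 67 at 1 and 62 of 66 at 2, with 7 false calls. Alternatives were pseudocounts of 0.25 and 4, no filter, median-of-ratios scaling, equal totals, the letter as a block, fits to 2 groups, and leaving out each library.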

Additional observations from a re-analysis of the deposited data

Results flagged for a closer look

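In 10 of 100 sets of 4 libraries (10 genes in 10 groups), 1 library stood farther from the other 3 than Dixon's 95% limit for 4 values, and chance flags about 5 of 100. Ile D was high for DLD3 (8063 normalized reads, the other Ile libraries 6373 to 6576), CIT1 (2634, the others 1844 to 1916) and ACO1 (16097, the others 11438 to 12062). Phe C was high for DLD3 (8596, the others 4703 to 5292) and CIT1 (3520.0, the others 1081 to 1467). Met B was high for ACO1 (9837, the others 5431 to 6106), Val C for IDH1 (4037, the others 2572 to 2753) and Cys D for IDH2, uncertain (5050.1, the others 2987 to 3283). Among the Ctrl libraries, A was high for RTG2 (1322, the others 1232 to 1247) and B low for MKS1 (622, the others 663 to 669). CIT2, RTG1 and RTG3 had no such library in any group.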

How the results depend on the processing

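Pseudocounts of 0.25 and 4, no filter and median-of-ratios scaling changed no call of a member in any comparison. A replicate block of letter, which pairs the libraries, changed none either: 5 members were called in Ala, 3 in Gly, 3 in Trp and 3 in Met, as without it. Equal library totals turned RTG2 in Ala from -0.17 to 0.0203. That scaling also ended the calls of MKS1 in Ala and IDH1 in Gly, and it added calls of ACO1 and IDH2 in Ala. Fits to 2 groups called 1 member in Gly, 3 in Thr, 7 in Trp and 0 in Cys, in place of 3, 1, 3 and 1. In Ala such a fit lost RTG2 (limma adjusted p = 0.0999) and gained ACO1 (limma adjusted p = 0.0146). Over all genes such fits called 78 in Cys, 195 in Phe, 1309 in Trp and 496 in Val, in place of 173, 342, 752 and 329, and the replicate block 499 in Val. The cause was not tested. Leaving out 1 library gave 0 to 2 called members in Gly and 0 to 1 in Cys. In Ala it was 4 to 5, in Trp 2 to 3, in Met 2 to 3, and in Thr and Phe 1 throughout. In Val and Ile, where the genes were chosen and nothing is read from it, the fit's count of members was 1 in Val under equal totals and 1 to 2 on leaving out 1 library, and 2 in Ile in a fit to 2 groups. At these depths RTG1 had an estimated 79 to 439 reads per library, the fewest of the members.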
